A study of Homo sapiens with 2 samples.

Results

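The retinoblastoma (RB) and E2F family was followed in K562 cells, a human line from chronic myeloid leukaemia, with and without induction of a short hairpin RNA against BMI1. Members were the probe sets whose platform-annotated symbol was RB1, RBL1, RBL2 or E2F1 to E2F7, which gave 10 genes of the 18417 named on the array, each with 1 probe set. Both cultures contained the doxycycline-inducible hairpin, written shBMI1 or shBmi1 in the labels. One culture was kept with doxycycline for 96 h, and the control culture received none. Each group held 1 sample on 1 array, made from 0.3 µg of RNA with an integrity number of 10. No culture received doxycycline without carrying the hairpin, so the drug and the hairpin cannot be told apart, and the labels do not say whether the line is a clone. With 1 sample per group there was no replicate error to compare with, and no p-value was computed. Values are log2 RMA values, and differences are doxycycline minus control on the log2 scale.

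The pocket proteins RB1, RBL1 and RBL2 bind E2F transcription factors and hold back the genes needed to enter S phase. Cyclin-dependent kinases phosphorylate the pocket proteins and release the E2Fs. E2F1, E2F2 and E2F3 are the activators, although E2F3 also has an isoform that represses. E2F4 and E2F5 act mainly as repressors with RBL1 and RBL2, E2F6 represses without a pocket protein and is found in a variant Polycomb complex, and E2F7 is an atypical repressor that binds DNA without a dimer partner. BMI1 is a Polycomb subunit known for repressing CDKN2A, whose product p16 keeps RB1 active by inhibiting CDK4 and CDK6. RB family activity is set largely at the protein level by phosphorylation, which an expression array does not measure.

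E2F genes are themselves regulated by E2Fs, so the sequence upstream of each member was searched for E2F motifs. The motifs were TTTCGCGC, TTTGGCGC, TTTCCCGC and TTTGCCGC on both strands, in windows from 250 bases before to 50 after the start site (RefSeq, GRCh38.p14). Windows were available for 9 of the 10 members, all except E2F5. All 3 activators and RBL1 held a match, 4 of the 9, whereas none did for E2F4, E2F6, E2F7, RBL2 or RB1. The RB1 window lies inside the gene rather than at its 5′ end, so it does not represent the main start site. Of all 27305 genes with a window, 3.99% held a match in at least 1 of them, and of all 35116 windows of this length 3.31%. The 100 bases just before the start site are shown 5′ to 3′ on the gene's strand for the 4 members with a match and for 3 repressors without one, with matches in capitals. The stretches are chr20:33686386-33686485 (minus strand) for E2F1, chr1:23531234-23531333 (minus) for E2F2, chr6:20401779-20401878 (plus) for E2F3 and chr20:37095998-37096097 (minus) for RBL1. Those without a match are chr16:67192055-67192154 (plus) for E2F4, chr2:11466162-11466261 (minus) for E2F6 and chr12:77065570-77065669 (minus) for E2F7.
E2F1: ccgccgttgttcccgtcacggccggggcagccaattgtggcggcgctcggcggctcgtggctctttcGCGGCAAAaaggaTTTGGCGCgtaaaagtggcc
E2F2: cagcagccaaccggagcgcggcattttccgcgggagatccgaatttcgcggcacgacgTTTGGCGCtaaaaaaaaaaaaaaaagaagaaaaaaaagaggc
E2F3: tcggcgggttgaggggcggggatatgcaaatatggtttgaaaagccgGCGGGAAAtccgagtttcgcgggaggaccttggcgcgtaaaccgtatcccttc
RBL1: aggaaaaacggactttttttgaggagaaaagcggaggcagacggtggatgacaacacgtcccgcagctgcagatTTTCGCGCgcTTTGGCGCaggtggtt
E2F4: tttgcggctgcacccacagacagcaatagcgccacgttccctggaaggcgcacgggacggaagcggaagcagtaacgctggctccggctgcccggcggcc
E2F6: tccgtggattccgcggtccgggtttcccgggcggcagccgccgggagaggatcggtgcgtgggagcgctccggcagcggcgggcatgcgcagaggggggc
E2F7: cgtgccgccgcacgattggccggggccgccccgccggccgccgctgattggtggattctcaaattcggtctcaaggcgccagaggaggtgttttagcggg
E2F1 and RBL1 each carried 2 matches close to the start, beginning 33 and 20 bases before it in E2F1 and 26 and 16 bases before it in RBL1. The E2F2 match began 42 bases and the E2F3 match 53 bases upstream. A match is a description of the letters and not a shown binding site, and the lack of one says only that these letters are not in the window.

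BMI1, the target of the hairpin, was 1.79-fold lower with doxycycline. Its probe set, which COMMD3-BMI1 shares, had a log2 value of 10.84 in the control and 10.00 after induction. Across the array, 13471 of 18417 genes reached a log2 value of 6 in at least 1 sample. This level was used here as a floor for dim genes, and passing it does not show that a gene was expressed. The median difference among the 13471 genes was 0.0018. All 11 measured genes of the erythroid marker list, among them GATA1, the erythroid master regulator, TAL1 and HBE1, passed this floor; K562 is known for its erythroid character. Marker lists of other cells passed it in part: 3 of 7 T cell genes, 3 of 5 B cell genes, 6 of 8 monocyte and granulocyte genes and 3 of 6 fibroblast genes. CD3E, CD2, MS4A1, MPO and DCN were under it in both samples, while LYZ was at 8.72, COL1A2 at 7.86 and CD3D at 7.45 in the control sample. The erythroid list was lower with doxycycline in 9 of 11 genes (median -0.18), where 48.8% of all genes were lower. Of the 11, 4 were at least 1.2-fold lower, against 4.05% of all genes, namely HEMGN at -0.57, HBZ at -0.44, HBE1 at -0.31 and KLF1 at -0.28. The 2 higher genes were ALAS2 at 0.22 and HBD at 0.09. Monocyte and granulocyte genes had a median of 0.10 over 6 genes, with ELANE at -0.33, LYZ at 0.28, S100A9 at 0.22 and CSF1R at 0.20. The medians were -0.08 for T cell, -0.17 for B cell and 0.01 for fibroblast genes. The part of these markers in the family's values was not tested.

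All 10 members were above the floor in both samples, and their levels differed little between them. None reached a 1.2-fold difference (0 of 10), whereas 10.1% of the 13471 genes did so in either direction. At 1.5-fold the count of members was also 0, against 0.475% of genes (0.364% higher and 0.111% lower). Of the members, 6 were higher and 4 lower with doxycycline, against 50.3% higher and 48.8% lower among all genes. Differences ran from -0.12 in E2F2 to 0.22 in RBL2, with a median of 0.04. The median absolute difference was 0.09 for the members and 0.10 for all genes. The family therefore differed between the 2 arrays by about as much as genes in general. For scale, probe sets of the same gene differed from each other with a pooled SD of 0.13 (554 genes), and the robust SD of differences among the 500 genes nearest in level was between 0.13 and 0.18 for the members. RBL2 alone exceeded the latter. This SD was largest at the level of E2F5, the dimmest member, so differences spread more among dim genes. The shares over all genes are not matched for level.

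**Figure D1:**
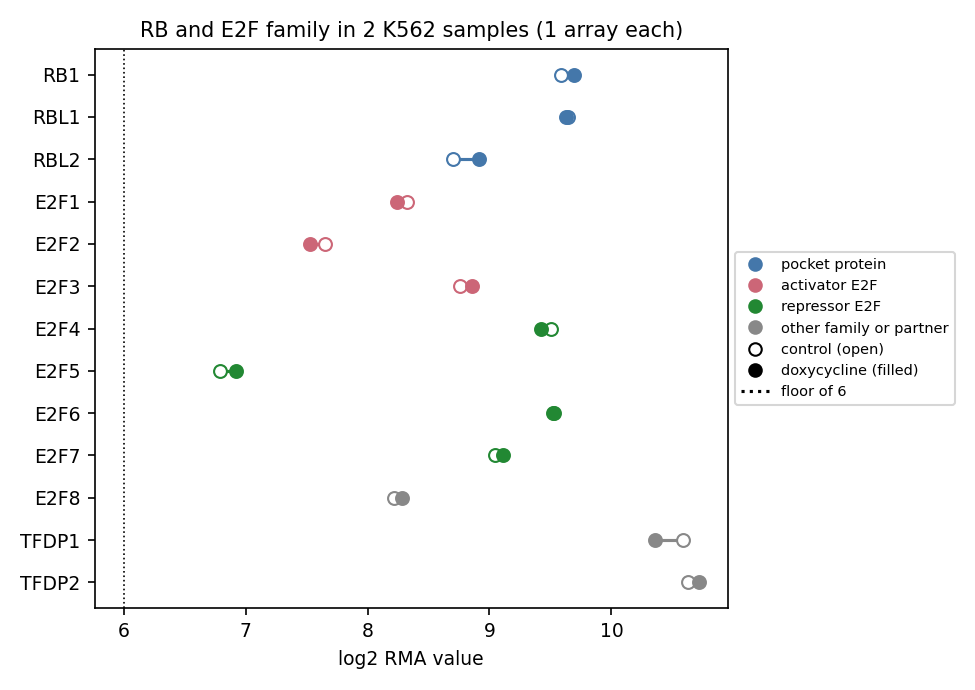
Log2 RMA value (x axis) of each RB and E2F family gene, E2F8 and the dimer partners TFDP1 and TFDP2 (y axis) in the control sample (open circles) and the doxycycline sample (filled circles), 1 array each; the dotted line is the floor of 6. The pairs lie close together, nearly on top of each other in RBL1 and E2F6 and furthest apart in RBL2 and TFDP1; positions of different genes are not comparable because their probes differ.

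Among the pocket proteins, RBL2 had the largest difference. RBL2, the pocket protein of quiescent cells and a known FOXO target, was at 8.92 with doxycycline and 8.70 in the control, a difference of 0.22 or 1.16-fold higher. The local robust SD was 0.14, and 9.17% of all genes had a larger positive difference. RB1, the retinoblastoma tumour suppressor, was at 9.70 with doxycycline and 9.59 in the control, a difference of 0.10, which is under its local robust SD of 0.13. RBL1, which is itself an S-phase gene, was at 9.63 and 9.64, a difference of -0.01. So the doxycycline sample was the higher one for RBL2 and RB1, and the samples were level for RBL1.

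The activator E2Fs did not move as one. E2F1, which drives both S-phase entry and apoptosis, was at 8.24 with doxycycline and 8.32 in the control, a difference of -0.08 (local robust SD 0.15). E2F2 was at 7.53 and 7.65, a difference of -0.12 (local robust SD 0.15) and the lowest of the family. E2F3 was at 8.86 and 8.76, a difference of 0.10 (local robust SD 0.14). E2F1 and E2F2 were thus slightly lower and E2F3 slightly higher, each by less than the spread of genes at its level. The E2F3 probe set is not separated into the activating and repressing isoforms in the annotation.

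The repressor E2Fs were as mixed. E2F4, the main partner of pocket proteins in resting cells, was at 9.42 with doxycycline and 9.50 in the control, a difference of -0.08 (local robust SD 0.14). E2F5 was at 6.92 and 6.79, a difference of 0.13 (local robust SD 0.18), and was the dimmest probe set of the family. These values lie near the median of all probe sets, 6.77 with doxycycline and 6.78 in the control. Whether E2F5 was expressed was not shown. E2F6, the Polycomb-associated member, was at 9.53 and 9.52, a difference of 0.01 (local robust SD 0.14). E2F6 was the member with the smallest difference, and its sign turned in 2 of 6 alternatives, after quantile normalization and with the median of its 500 neighbours in level subtracted. E2F7 was at 9.11 and 9.04, a difference of 0.07 (local robust SD 0.14). Its closest relative E2F8, also an atypical repressor, was at 8.29 and 8.21, a difference of 0.07. RefSeq lists 4 pseudogenes of E2F6, 2 of E2F3 and 1 of E2F4, none with a probe set of its own here (0), and whether their transcripts add to these signals was not tested.

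Set against each other, the 3 activators had a median difference of -0.08 and the 4 repressors E2F4 to E2F7 one of 0.04. The contrast of activators minus repressors was -0.12, a 1.09-fold size. The groups overlapped: activators ran from -0.12 to 0.10 and repressors from -0.08 to 0.13, with E2F3 above E2F4, E2F6 and E2F7. The contrast was -0.03 without E2F2 and -0.05 without E2F1, and -0.07 with means in place of medians. It therefore rests on E2F1 and E2F2, and at this size activators and repressors were not separated in these 2 samples.

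**Figure D2:**
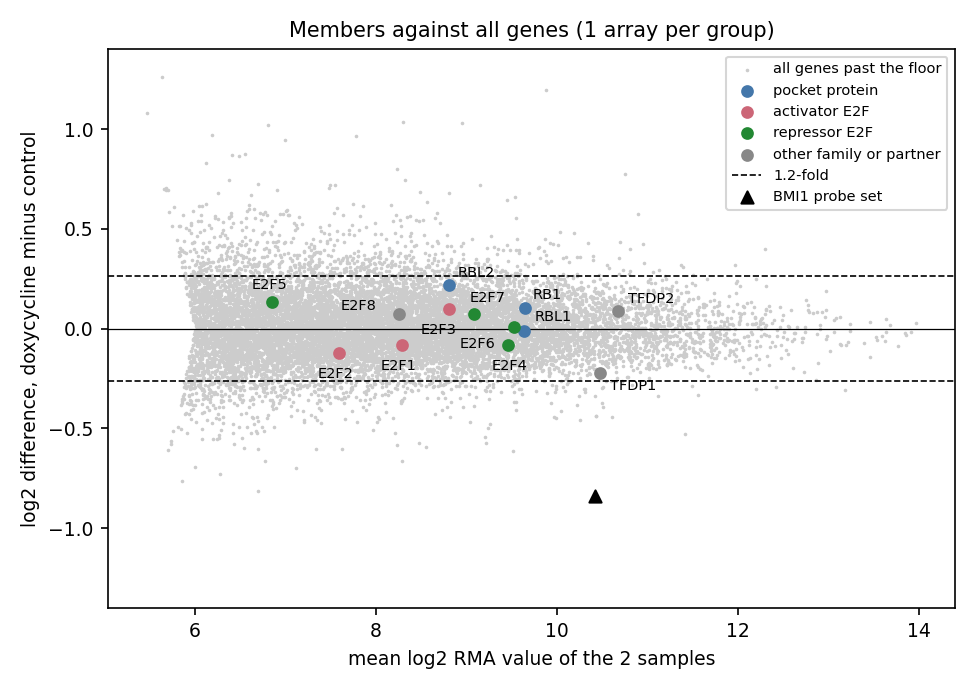
Log2 difference, doxycycline minus control (y axis), against the mean log2 RMA value of both samples (x axis) for the 13471 genes past the floor (grey), with pocket proteins, activators, repressors and other family or partner genes coloured and the BMI1 probe set as a triangle. All labelled genes lie between the dashed 1.2-fold lines, while BMI1 lies at -0.84.

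Among the dimer partners, TFDP1 had a difference as large as that of RBL2, in the other direction. TFDP1 encodes DP1, the common dimer partner of E2F1 to E2F6, and was at 10.36 with doxycycline and 10.58 in the control, a difference of -0.22 or 1.17-fold lower. Its local robust SD was 0.13, and 6.32% of genes had a lower difference. TFDP2, the alternative partner, was at 10.72 and 10.63, a difference of 0.09 (local robust SD 0.13). TFDP3, a partner gene known from testis, was below the floor at 4.92 and 5.12 and is not interpreted. The doxycycline sample was therefore the lower one for TFDP1 and the higher one for TFDP2. Only the TFDP1 difference was larger than the spread of genes at its level.

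MuvB is the core that joins RBL1 or RBL2 with E2F4 or E2F5 in the repressive DREAM complex and later joins MYBL2 and FOXM1 to activate mitotic genes. Of 8 MuvB and DREAM genes, 3 were higher and 5 lower, with a median of -0.03, against 50.3% higher and 48.8% lower among all genes. None reached 1.2-fold (0 of 8), a size that 10.1% of all genes reached. FOXM1, the mitotic activator, differed by -0.17 and DYRK1A, the kinase that promotes DREAM assembly, by 0.14. The DNA-binding subunit LIN54 differed by 0.08 and LIN52 by -0.04.

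Upstream of the pocket proteins, 9 of 11 genes in a list of G1 cyclins and kinases were lower with doxycycline and 2 higher. The median was -0.09 against 0.0018 for all genes, of which 48.8% were lower. The list also holds the A-type cyclins CCNA1 and CCNA2, which are not G1 cyclins and were both lower. None reached 1.2-fold (0 of 11), a size that 10.1% of all genes reached in either direction. The D-type cyclins CCND3, at 10.12 and 10.30, and CCND1, at 8.67 and 8.83, differed by -0.18 and -0.16. CCNA1 differed by -0.17 near the floor, at 5.98 with doxycycline and 6.14 in the control. CCNE2, one of the E-type cyclins that activate CDK2, went the other way at 0.16. The inhibitors of these kinases went both ways. CDKN1A (p21) was at 8.45 with doxycycline and 8.17 in the control, 1.21-fold higher, and was the only one of 6 inhibitors past 1.2-fold; 6.04% of all genes were that much higher. CDKN1B (p27) differed by 0.23 and CDKN1C (p57) by -0.20. The INK4 genes lay nearer 0, with CDKN2B at -0.07 and CDKN2A at -0.05. CDKN2A was at 6.67 with doxycycline and 6.72 in the control, close to the floor, and CDKN2B at 6.97 and 7.04. Detection calls were not used, so whether either gene was expressed, or present in these cells, was not shown.

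Genes for corepressors recruited by RB and for the Polycomb complex of E2F6 were spread around 0; among all genes 50.3% were higher, 48.8% lower and 10.1% past 1.2-fold. Of 14 RB corepressor genes, 9 were higher and 5 lower, with a median of 0.03 and none past 1.2-fold (0). KMT5B, a histone H4 methyltransferase, differed by 0.20, the remodelling ATPase SMARCA2 by 0.14, the H3K9 methyltransferase SUV39H1 by 0.13 and the demethylase KDM5A by 0.12. Of 16 genes of the E2F6 complex PRC1.6, 6 were higher and 10 lower, with a median of -0.02 and none past 1.2-fold (0). PCGF6, the BMI1 paralogue that defines this complex, was at 8.66 with doxycycline and 8.41 in the control, a difference of 0.25. WDR5 differed by -0.16 and CBX3 by 0.13, and TFDP1 also belongs to this list. Germline genes of the kind held silent by E2F6 were mostly under the floor in both samples, 13 of 17 measured, MAEL, SMC1B and SLC25A31 among them. Of all 18417 genes, 13471 passed the floor. The 4 above it were TUBA3C at -0.16, SYCE2 at 0.10, STAG3 at 0.02 and TEX11 at -0.01. Of 11 genes for RB degradation and E2F turnover, 6 were higher, 4 lower and 1 level (median 0.07), with MDM2 at 0.17, the oncoprotein gene PSMD10 (gankyrin) at 0.17, CCNF at -0.13 and FZR1 at 0.10.

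**Figure D3:**
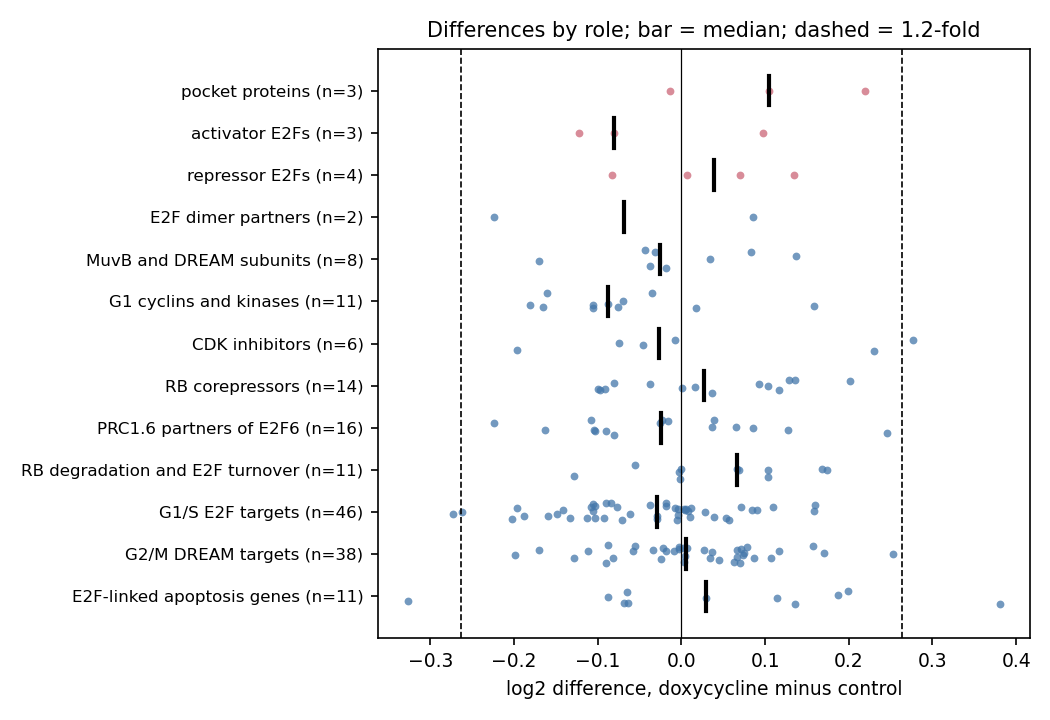
Log2 difference, doxycycline minus control (x axis), of each gene past the floor in lists ordered by role around the RB and E2F family (y axis); red points are the members, blue points other pathway genes, black bars medians and dashed lines 1.2-fold. Points of every list lie on both sides of 0, and 4 of the 150 distinct pathway genes (2.67%) lie beyond the dashed lines, against 10.1% of all genes. Dim genes spread more, and these shares are not matched for level.

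Downstream, more S-phase targets of E2F were lower than higher in the doxycycline sample. Of 46 G1/S targets, 30 were lower and 16 higher with a median of -0.03, where 48.8% of all genes were lower. CCNA2, CCNE1 and CCNE2 are also in the list of G1 cyclins and kinases, so the counts of both lists overlap. One target, the uracil glycosylase gene UNG, was 1.21-fold lower, at 7.93 with doxycycline and 8.20 in the control; 4.05% of all genes were at least 1.2-fold lower. GINS2, a subunit of the replicative helicase, differed by -0.26, the helicase subunit MCM2 by -0.20 and UHRF1, which maintains DNA methylation, by -0.20. Mitotic targets of DREAM were balanced, with 22 of 38 higher, 16 lower and a median of 0.01, against 50.3% of all genes higher. None was past 1.2-fold (0 of 38), against 10.1% of all genes. The phosphatase gene CDC25C differed by 0.25, the kinase subunit CKS2 by -0.20 and the cytokinesis gene ECT2 by 0.17. E2F1 is also linked to apoptosis genes, and of 11 such genes 6 were higher and 5 lower (median 0.03). CASP9, the initiator caspase of the mitochondrial pathway, was at 9.77 with doxycycline and 9.39 in the control, 1.30-fold higher. PPP1R13L (iASPP), an inhibitor of p53 family proteins, was at 7.12 and 7.45, 1.25-fold lower. Past 1.2-fold the list of 11 held only 1 gene higher and 1 lower, against 6.04% and 4.05% of all genes. PMAIP1 differed by 0.20 and APAF1, which assembles the apoptosome with CASP9, by 0.19.

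Target genes were then divided by promoter motif. An E2F motif was present for 23 of 42 G1/S targets with a window, or 54.8%, against 3.99% of the 27305 genes with a window. The 23 measured targets with the motif had a median difference of -0.07, with 17 of 23 lower, and the 18 without it one of -0.02, with 12 of 18 lower. Over all genes past the floor, the 656 with an E2F motif had a median of -0.0082 and 51.7% were lower. The 9947 without it had a median of 0.0041 and 48.2% were lower. The cell cycle homology region (CHR), through which MuvB reaches mitotic promoters, was searched as TTTGAA and TTCGAA on both strands. It was present for 26 of 33 mitotic targets with a window, or 78.8%, against 19.5% of all genes with a window. Both lists name known targets of E2F or DREAM, so their higher motif shares come with the choice of genes. Mitotic targets with the motif had a median of 0.03 over 25 genes and those without it 0.0044 over 7. Over all genes the medians were 0.02 with the CHR motif (1589 genes) and 0 without it (9014 genes). The 25th and 75th percentiles were -0.09 and 0.08 for all genes with an E2F motif and -0.09 and 0.11 for those without. For the G1/S targets they were -0.15 and -0.00049 with the motif and -0.10 and 0.0088 without it, so the upper quartile of the targets with the motif lay just below 0 and the ranges of both groups overlapped. Genes are not replicates, and no test of these differences was made.

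**Figure D4:**
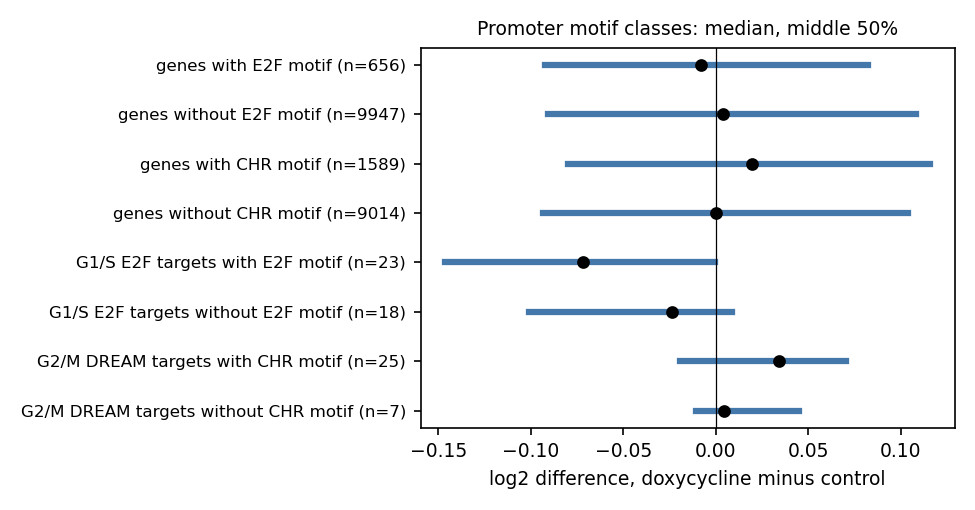
Median (black point) and range from the 25th to the 75th percentile (blue bar) of the log2 difference, doxycycline minus control (x axis), for genes past the floor grouped by an E2F or CHR motif in the promoter window (y axis, with the number of genes). The bars of genes with and without a motif overlap over most of their length, and the G1/S targets with an E2F motif have the lowest median, -0.07.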

How the data were processed

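Total RNA of 2 K562 cultures was labelled with biotin for Affymetrix whole-transcript arrays, 1 per culture, per the labels' protocols. The deposited table gives 33297 probe sets as log2 values, for which the submitters' processing notes name RMA and Affymetrix Expression Console 1.1.1. RMA includes quantile normalization, which removes a shift shared by all genes, and shrinks differences of dim probe sets. Differences still spread more among dim genes here. The robust SD was 0.18 at the level of E2F5 and 0.13 at that of RB1. The log base was taken from RMA and the range of the values. Which arrays were normalized as one set is not stated in the labels. The design text names an HG-U133 Plus array, but the platform annotation is that of a whole-transcript array and was used here.

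Probe sets with 1 symbol (19460) were renamed through Entrez IDs (19429 matched RefSeq); those with several symbols (1754) were left out, except for BMI1. A gene took its probe set with the highest mean. Gene lists were described by counts and medians over members with a value of at least 6 in 1 sample, next to all genes. Named were all members, BMI1, E2F8, TFDP1 to TFDP3, CDKN2A and up to 4 genes per list with the largest absolute difference; others were named after their values were seen. Members and lists were chosen with earlier results of these data known. With 1 sample per group no test was possible; the number of arrays limits the precision. Protein sequences were not used here. Steps were tested on simulated data. Alternatives covered probe set summary, centring, loess (span 0.3), quantile normalization, the floor, and the E2F genes entered. Python 3.11.15, numpy 2.4.6, pandas 2.3.3 and statsmodels 0.14.6 were used.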

Additional observations from a re-analysis of the deposited data

How the results depend on the processing

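No paired analysis was possible because each group held 1 sample, and no replicate could be left out. None of the 10 members passed 1.2-fold under any of the 5 alternatives of probe set summary, centring, loess trend or quantile normalization (0 in each). Member differences kept their sign under these and under subtraction of the median of the 500 nearest genes, added after seeing the data, except E2F6, which ranged from -0.002 to 0.02. Each member has 1 probe set, so the probe set summary could not change any member's value. The contrast of activators minus repressors was negative in all 14 alternatives, from -0.15 to -0.03. Centring shifts all genes alike, so neither it nor the probe set summary could change the contrast. Leaving out each E2F gene other than E2F7 was added after seeing the data. Counts of genes followed the floor. At 1.2-fold, 1343 genes were higher and 1103 lower without any floor; 317 were lower at 7, and at 8 the counts were 326 and 179. At 1.5-fold 49 were higher and 15 lower at 6, 77 and 66 without any floor, 26 and 9 at 7, and 16 and 4 at 8, while 32 were lower at 5. The dimer partner median was -0.20 with no floor and with a floor of 5 (-0.20), which let in TFDP3. The apoptosis list had a median of 0.072 with no floor, and the same 0.072 at floors of 5 and 8. At 8 the CDK inhibitors had a median of 0.11 and the germline genes one of -0.087, since fewer genes remained. The E2F motif difference, with minus without, was -0.0050 without any floor, -0.019 at 7 and -0.022 at 8, against -0.012 at 6. The CHR motif difference was 0.016 with no floor against 0.020.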

Other observations

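Some genes around the family had only a probe set shared with another symbol and entered no comparison. The probe set of CENPA, the centromeric histone and a mitotic target, also carries SLC35F6 and stood at 9.48 with doxycycline and 9.59 in the control, a difference of -0.10. The probe set of CDK3 and TEN1-CDK3 stood at 7.13 and 7.09, a difference of 0.04. EPC1, listed with the E2F6 complex, shares its probe set with ASXL2, which differed by -0.04. The probe set shared by TUBA3C, TUBA3D and TUBA3E differed by -0.02, whereas the one annotated to TUBA3C alone differed by -0.16; these tubulins are near-identical, so both values are uncertain.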
